A study of Rattus norvegicus with 42 samples.

Results

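The 9 genes described here carry oxygen or build and break heme, were chosen by name for these roles, and were followed through rat liver, brain and lung and through mixtures of the 3 tissues. They are the red cell genes Hbb, Ahsp and Slc4a1, the heme synthesis genes Alas1, Alas2 and Fech, the heme oxygenases Hmox1 and Hmox2, and the nerve cell globin Ngb. Of the 14217 genes that 1 or more probe sets of the array name singly, these 9 genes had 11 probe sets, since Slc4a1 and Ngb had 2 each. For these 2 genes the probe set with the higher mean over all arrays stands for the gene, and the other is called the second probe set.

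Untreated liver, brain and lung of 1 rat were compared, with animals of 9 to 12 weeks per the labels. Strain and sex are not given in the sources used here. RNA was hybridised to Affymetrix rat arrays either as pure tissue or after labelled cRNA of all 3 tissues had been mixed in 11 known proportions, and each of the 14 groups had 3 technical replicate arrays, 42 in all. The series title names the purpose as a test of deconvolution, the recovery of tissue shares from a mixed sample. With 1 animal, every p-value measures only the spread between arrays, and nothing here is an estimate of how rats differ. Mixtures are written as percent liver/brain/lung, so that 70/25/5 is 70% liver, 25% brain and 5% lung. Values are log2 levels after RMA, a method that corrects background, gives all arrays the same distribution of probe signals and summarises the probes of a set. A difference of 1 on this scale is 2-fold.

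Red cells carry hemoglobin, and each hemoglobin chain holds a heme. Heme is built from glycine and succinyl-CoA, with 5-aminolevulinate synthase as the entry step and ferrochelatase as the step that inserts iron. The entry enzyme has a form found in most cells, Alas1, and a red cell form, Alas2; liver uses much heme for its cytochromes P450. Heme oxygenase opens the heme ring to biliverdin, iron and carbon monoxide. Hmox1 is its inducible form, prominent in macrophages that clear old red cells, and Hmox2 its constitutive form, abundant in brain.

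The 250 bases before the annotated start of Hbb and of Alas1 are shown because these genes stand for red cell content and for liver heme synthesis and had different tissue orders. The sequences come from RefSeq on the GRCr8 build, read 5′ to 3′ on the strand of the gene, which is the minus strand for both. Capitals mark matches to 5 short motifs searched on both strands. These were CCACACCC of the CACCC kind, AGATAA of the GATA kind, the CCAAT box, CCGCCC of the GC box, and the NRF1 motif, which is GCGCA and GCGC with any base between them. No match overlapped another in these windows. The Hbb window is at chr1:167663722-167663971 and the Alas1 window at chr8:115768643-115768892.
Hbb: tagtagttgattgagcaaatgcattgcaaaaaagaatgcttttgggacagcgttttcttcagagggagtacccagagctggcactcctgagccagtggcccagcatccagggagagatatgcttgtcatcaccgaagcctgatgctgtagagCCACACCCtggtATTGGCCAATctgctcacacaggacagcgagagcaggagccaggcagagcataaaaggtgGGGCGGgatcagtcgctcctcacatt
Alas1: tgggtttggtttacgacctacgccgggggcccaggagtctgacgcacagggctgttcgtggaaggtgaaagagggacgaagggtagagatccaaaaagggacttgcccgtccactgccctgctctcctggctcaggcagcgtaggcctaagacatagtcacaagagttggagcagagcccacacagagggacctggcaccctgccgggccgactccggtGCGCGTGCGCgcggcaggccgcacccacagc

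The Hbb window held 1 CCACACCC, the letters of the CACCC element of globin promoters, beginning 98 bases before the start. It also held 2 CCAAT matches, on opposite strands, and 1 CCGCCC match. The Alas1 window held none of these and had 1 match to the NRF1 motif, beginning 31 bases before the start. Of 33469 windows of the same length, 2.84% held a CCACACCC, 10.3% an AGATAA, 34.0% a CCAAT, 3.75% the NRF1 motif and 30.5% a CCGCCC. The G and C content was 52.8% for Hbb and 64.0% for Alas1, beside a median of 51.2% over all windows. These matches describe the letters only. Of the 9 genes 6 had a window in the table; Ahsp, Slc4a1 and Hmox1 had none.

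The tissue labels were checked with marker genes. Of 6 hepatocyte markers 6 were called higher in liver than in brain and in lung, of 5 neuron markers 5 were called higher in brain than in both other tissues, and of 4 alveolar and airway markers 4 were called higher in lung than in both. Of the hepatocyte markers 2, Alb and Cps1, were called higher in brain than in lung: the albumin gene Alb had 12.21 ± 0.02 in brain (SD, n = 3) and 5.07 ± 0.25 in lung, while the hepatocyte genes Apoa1 and Tat had 4.02 and 3.47 in brain and 3.03 and 3.60 in lung. The summed linear level of the 6 hepatocyte markers was 4990 to 5090 in brain and 374 to 409 in lung. The 3 astrocyte markers were all called higher in brain than in lung. Against liver 2 of them were called higher in brain, but Aldh1l1 was called higher in liver, with 11.32 against 7.30 in brain. The lung arrays carried heart muscle transcripts, with 3 of 3 measured markers called higher in lung than in both other tissues and a summed linear level of 1265 to 1290, against 47.5 to 51.9 in liver and 57.5 to 69.3 in brain. Array medians lay between 5.48 and 5.83, and the median SD between replicates was 0.12 in liver, 0.09 in brain and 0.09 in lung. On average the bioB hybridisation control had a log2 level of 8.48 in pure liver, 7.62 in brain and 7.55 in lung. The brightest of the 4 such controls, cre, went the other way, with 13.02, 13.43 and 13.22. A rescaling of each array on its 4 hybridisation controls raised the bright Hbb in liver against both tissues but lowered the median probe set there: it moved the median liver-minus-brain difference of all probe sets from 0.18 to −0.66 and the median liver-minus-lung difference from 0.12 to −0.80. That rescaling turned the sign of 9 of 33 pure tissue differences of the 11 probe sets. Taken relative to the median of all probe sets, it turned 0 of 33.

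Hemoglobin transcript was highest in lung. Hbb, the beta chain of hemoglobin, measured 12.24, 12.24 and 12.27 on the 3 liver arrays, 11.36, 11.40 and 11.35 on the brain arrays, and 13.58, 13.58 and 13.60 on the lung arrays. The 3 tissues did not overlap, in the order lung, liver, brain. Hbb was 4.65-fold higher in lung than in brain (brain minus lung −2.22, SE 0.04, limma adjusted p = 4.46e-31) and 2.53-fold higher in lung than in liver (limma adjusted p = 1.70e-24). Liver exceeded brain by 0.88, or 1.84-fold, which passed the test (limma adjusted p = 3.19e-19) but not the 2-fold limit. That difference was 1.12 with each array centred on its median and 1.07 with the hybridisation control rescaling, so it passed the limit under both. The Hbb probe set is of the kind whose probes can also match closely related transcripts, so other beta globin genes may add to it. In these bulk samples, fewer cells of a type and less RNA per cell cannot be told apart.

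Ahsp, the chaperone that stabilises free alpha globin in maturing red cells, had the same tissue order at lower levels. It measured 5.04, 5.18 and 5.03 in liver, 4.59, 4.16 and 4.24 in brain, and 6.69, 6.51 and 6.59 in lung. No liver, brain or lung array overlapped an array of another tissue. Lung was 4.82-fold above brain (limma adjusted p = 1.81e-18) and 2.86-fold above liver (limma adjusted p = 1.47e-13). The liver and brain means, 5.08 and 4.33, lay below 5.73, the median of all values in the table, so both folds depend on the background: with each array's 5th percentile subtracted, brain minus lung moved from −2.27 to −2.86 and liver minus lung from −1.51 to −1.85. Liver was above brain by 0.75 (SE 0.12, limma adjusted p = 7.44e-07), under the 2-fold limit; this difference was −0.11 with the hybridisation control rescaling and 1.01, past the limit, with the 5th percentile subtracted.

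Alas2, the red cell form of the entry enzyme of heme synthesis, measured 7.64, 7.75 and 7.55 in liver, 5.25, 5.12 and 5.29 in brain, and 8.41, 8.39 and 8.37 in lung. Again no tissue overlapped another, and lung was highest. Brain was lower than lung by 3.17 (SE 0.08), a 9.01-fold difference (limma adjusted p = 2.39e-27), and lower than liver 5.38-fold (limma adjusted p = 5.46e-24). Lung exceeded liver 1.67-fold (limma adjusted p = 8.22e-10), which did not reach the 2-fold limit; the liver-minus-lung difference moved from −0.74 to −1.70 with the hybridisation control rescaling and then passed it.

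Slc4a1, the band 3 anion exchanger of the red cell membrane, did not share this order. Its array values were 5.65, 5.61 and 5.45 in liver, 4.88, 4.79 and 4.76 in brain, and 4.96, 4.88 and 4.86 in lung. The brain and lung arrays overlapped, and the brain-minus-lung difference of −0.10 did not pass the test (limma adjusted p = 0.352, 95% confidence interval −0.28 to 0.09). Liver was above brain by 0.76 and above lung by 0.67 (limma adjusted p = 2.11e-09 and 3.83e-08), both under the 2-fold limit. These 2 differences were −0.10 and −0.27 with the hybridisation control rescaling, and that from brain was 1.01, past the limit, with each array centred on its median. The second probe set read 4.98, 5.39 and 4.70 in liver, 3.57, 3.02 and 3.27 in brain, and 4.50, 4.18 and 4.67 in lung, and placed brain 2.25-fold under lung (limma adjusted p = 7.49e-08) and 3.33-fold under liver (limma adjusted p = 9.97e-12), both called, the latter not with the hybridisation control rescaling, at 0.87. The 2 probe sets thus differed on the call of brain against each other tissue. Neither had a group mean above 5.73, so Slc4a1 was dim throughout; each of the other 8 genes had 1 or more group means above it.

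**Figure D1:**
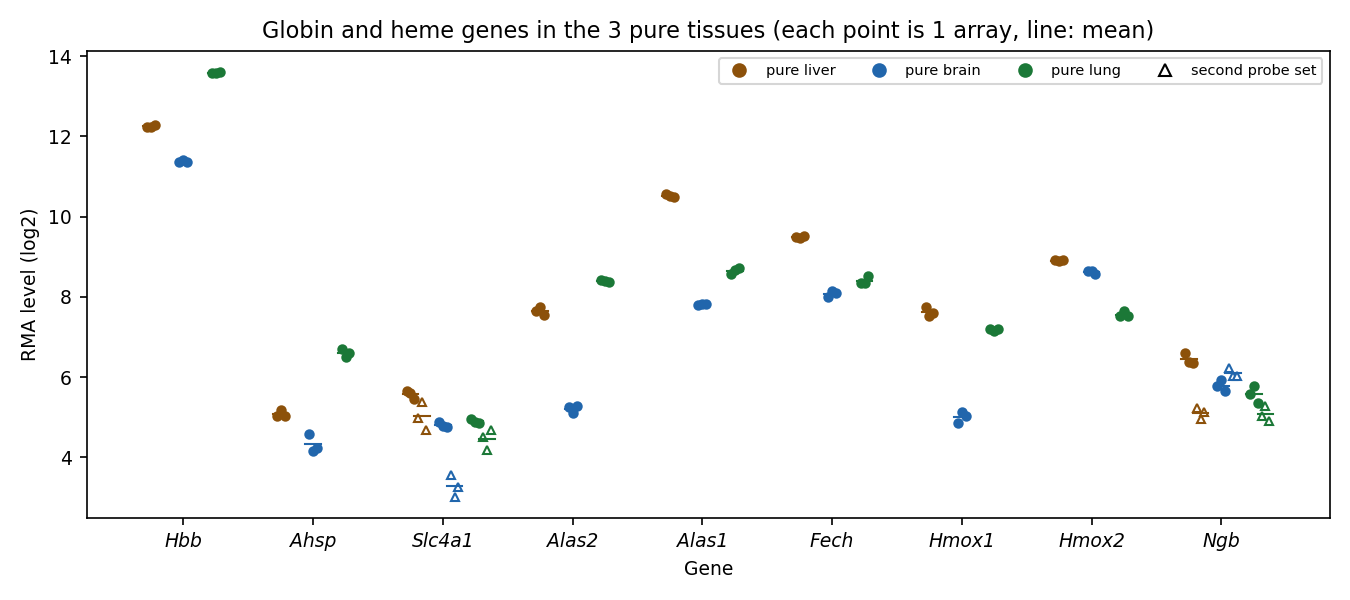
RMA log2 level of each gene (vertical axis) on the 3 arrays of pure liver, brain and lung, with a line at the mean; open triangles are the second probe set of Slc4a1 and Ngb. Hbb, Ahsp and Alas2 are highest in lung, Alas1 and Fech in liver, and Hmox1 has 5.01 in brain against 7.63 in liver and 7.18 in lung; levels of different genes come from different probes and have no common scale.

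The plot of array values shows how small the replicate spread was beside the tissue differences of Hbb, Alas1 and Alas2, and how wide it was for the second probe set of Slc4a1, with an SD of 0.35 in liver, 0.27 in brain and 0.25 in lung (n = 3). Other red cell genes did not move as a block with Hbb. Of 23 listed red cell and erythroid genes 17 were measured, of which 3 were called higher and 4 lower in brain than in lung, where 31% of all probe sets were called, with a median difference of −0.16 beside −0.03 over all probe sets. Between liver and lung 1 was called higher and 4 lower in liver, beside 28% of all probe sets. With the hybridisation control rescaling 0 were higher and 8 lower, beside 4.56% and 40.8% of all probe sets. Between liver and brain 3 were called higher and 5 lower in liver, beside 33.5%. With that rescaling 1 was higher and 5 lower, beside 7.28% and 36.4%. Gypc, the glycophorin of the red cell membrane skeleton, had 8.81 ± 0.12 in liver, 5.88 ± 0.05 in brain and 8.93 ± 0.03 in lung (SD, n = 3). Nfe2, an erythroid and megakaryocyte transcription factor, had 4.41 in liver, 2.91 in brain and 5.72 in lung. Tal1, a regulator of blood and endothelial cells, had 5.95, 6.0 and 8.70, with lung above both. The spectrin gene Sptb was the opposite, with 5.44 in liver, 7.47 in brain and 4.89 in lung. Klf1 and Gata1, erythroid regulators named after their values were seen, had highest tissue means of 4.08 and 3.70 and no 2-fold call between any tissues. The summed linear level of the 17 genes was 1615 to 1700 in liver, 3585 to 3735 in brain and 2955 to 3030 in lung, with Car2, a carbonic anhydrase that brain also expresses and also named after its values were seen, at 10.76 in brain. Markers of other blood cells did not share 1 order. The summed linear level of 4 platelet markers was 236 to 277 in liver, 80.0 to 90.8 in brain and 569 to 595 in lung, but of these only Pf4 was highest in lung, at 8.91 against 6.14 in liver, and Itga2b was called higher in liver than in lung, with 7.07 and 5.81. For 3 neutrophil markers the sum was 93.9 to 143 in liver, 34.7 to 35.9 in brain and 1305 to 1432 in lung. What part blood content had in the Hbb differences was not tested.

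Other globins gave little beyond Mb. Of 7 listed, 6 were measured, and the embryonic and fetal genes Hbe1, Hbe2, Hbg1 and Hbz had no tissue mean above 3.79. Mb, the oxygen store of heart and skeletal muscle, had 5.15 ± 0.11 in liver, 3.45 ± 0.07 in brain and 6.88 ± 0.11 in lung, 10.7-fold higher in lung than in brain. The heart muscle markers above were higher in lung as well, and their part in the Mb value was not tested. Cygb, a globin of fibroblasts and related cells, had 6.17 in liver, 7.10 in brain and 6.84 in lung, with no 2-fold call.

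Ngb, the globin of nerve cells, gave no single answer. Its probe set with the higher mean measured 6.59, 6.38 and 6.36 in liver, 5.79, 5.92 and 5.65 in brain, and 5.58, 5.77 and 5.37 in lung. Brain and lung overlapped on it, and liver was above both, by 0.66 and 0.87 (limma adjusted p = 6.23e-07 and 2.74e-09), under the 2-fold limit. Both turned with the hybridisation control rescaling, to −0.21 and −0.068, while the difference from lung passed the limit with median centring, at 1.12, and with repeated quantile normalization, at 1.09. The second probe set measured 5.23, 4.96 and 5.14 in liver, 6.23, 6.02 and 6.04 in brain, and 5.04, 5.29 and 4.92 in lung. There brain was highest, with no overlap with either tissue, by 0.99 over liver (−0.99 as liver minus brain, limma adjusted p = 2.56e-08), which passed the 2-fold limit without any 1 of 4 arrays, and by 1.01 over lung (limma adjusted p = 1.59e-08). The brain call over lung was 2.02-fold and sat at the limit: it was 0.95 without the first pure brain array, 0.99 without the first pure lung array and 0.93 without the third pure lung array. It was also under the limit with the hybridisation control rescaling, at 0.94, and with quantile normalization, at 0.95, while liver minus brain passed it with the former, at −1.85, and with the 5th percentile subtracted, at −1.26. Liver and lung overlapped on the second probe set, with a difference of 0.03 (limma adjusted p = 0.851, 95% confidence interval −0.24 to 0.29). The direction of Ngb between liver and brain therefore depended on the probe set.

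The heme synthesis genes Alas1 and Fech were highest in liver. Alas1, the entry enzyme of most cells and the step that limits heme synthesis in liver, measured 10.55, 10.52 and 10.49 in liver, 7.80, 7.82 and 7.83 in brain, and 8.57, 8.66 and 8.72 in lung. No tissue overlapped another. Liver was 6.51-fold above brain (2.70, SE 0.05, limma adjusted p = 3.88e-33) and 3.65-fold above lung (1.87, limma adjusted p = 4.38e-28). Brain was lower than lung by 0.84, under the 2-fold limit (limma adjusted p = 7.27e-18). Fech, which inserts iron into protoporphyrin, measured 9.50, 9.48 and 9.51 in liver, 8.0, 8.14 and 8.09 in brain, and 8.34, 8.34 and 8.52 in lung. It had the same order with smaller steps: liver exceeded brain 2.67-fold (limma adjusted p = 2.07e-21) and lung 2.14-fold (limma adjusted p = 5.19e-18), and brain was lower than lung by 0.32. Both Fech calls of liver were lost with the hybridisation control rescaling, at 0.79 and 0.35. The Alas1 calls were kept under every rescaling tried.

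The forms of the entry enzyme thus had different tissue orders, Alas1 with liver first and Alas2 with lung first. The per-array log2 level of Alas1 minus that of Alas2 was 2.87 ± 0.09 in liver, 2.60 ± 0.09 in brain and 0.26 ± 0.10 in lung (SD, n = 3). These values carry the unknown difference between the 2 probe sets, which cancels between tissues if both probe sets respond alike. The difference changed by 2.61 from lung to liver and by 2.34 from lung to brain, and by 0.27 from brain to liver. In each of these 3 comparisons the arrays of the tissues did not overlap. The two-sided exact permutation p was 0.10 in each, the smallest that 3 against 3 arrays allow (0.10 after adjustment over 6 comparisons). Alas2 in brain, at 5.22, lay below 5.73, the median of all values, so the 0.27 depends on the background. Liver minus brain was 2.74 for Alas1 and 2.70 for Alas2 with the 5th percentile subtracted. With the hybridisation control rescaling these were 2.37 and 1.56.

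Most other synthesis genes that were called were higher in liver. Of 13 listed synthesis and transport genes 11 were measured, of which 5 were called higher and 1 lower in liver than in brain, 6 higher and 0 lower in liver than in lung, and 1 higher and 3 lower in brain than in lung. Of all probe sets 33.5%, 28% and 31% were called in these comparisons. Their median liver-minus-brain difference was 0.97 beside 0.18 over all probe sets, and their liver-minus-lung median was 1.06 beside 0.12. With the hybridisation control rescaling the calls were 3 higher and 1 lower against brain, beside 7.28% and 36.4% of all probe sets. Against lung they were 2 higher and 1 lower, beside 4.56% and 40.8%. Alad, the enzyme after the entry step, had 10.92 ± 0.05 in liver, 7.35 ± 0.03 in brain and 8.81 ± 0.02 in lung (SD, n = 3), 11.9-fold above brain. Ppox, the oxidase before ferrochelatase, had 8.31, 6.14 and 6.31. Tmem14c, which helps porphyrin into the mitochondrial matrix, had 10.21, 8.10 and 9.14. Ppargc1a, a coactivator that can induce Alas1, was the opposite, with 5.62 in liver, 8.03 in brain and 6.17 in lung. Urod and Cpox, middle enzymes of the pathway that were chosen for naming after their values were seen, had no 2-fold call, with liver minus brain at 0.86 and 0.85.

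Heme oxygenase 1 was lowest in brain. Hmox1 measured 7.74, 7.53 and 7.61 in liver, 4.86, 5.13 and 5.04 in brain, and 7.20, 7.14 and 7.21 in lung. No tissue overlapped another, but liver and lung were close. Liver was 6.13-fold above brain (2.62, SE 0.08, limma adjusted p = 3.85e-26), and lung 4.50-fold above brain (limma adjusted p = 1.28e-23). Liver exceeded lung by 0.44 (limma adjusted p = 3.08e-06), under the 2-fold limit, and this difference was −0.49 with the hybridisation control rescaling. Of 7 listed macrophage markers 5 were measured, of which 4 were called higher in liver than in brain, beside 14.6% of all probe sets. In lung 3 were called higher than in brain, beside 15.9%. Cd68 and Mrc1 were called in both. Between liver and lung 2 were called higher and 1 lower in liver, where 10.8% and 17.2% of all probe sets were. Their median difference was −0.35, beside the 0.44 of Hmox1. Their summed linear level was 2167 to 2247 in liver, 251 to 274 in brain and 1826 to 1983 in lung. Clec4f, which marks the macrophages of liver, had 9.79 in liver, 4.42 in brain and 4.24 in lung. What part macrophage content had in the Hmox1 differences was not tested.

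Hmox2 had another order, with lung lowest. It measured 8.91, 8.89 and 8.91 in liver, 8.63, 8.65 and 8.57 in brain, and 7.51, 7.64 and 7.53 in lung. The tissues did not overlap, and liver and brain were within 0.29 of each other (limma adjusted p = 1.73e-06), a difference that was −0.44 with the hybridisation control rescaling. Liver was 2.54-fold and brain 2.08-fold above lung (limma adjusted p = 2.37e-23 and 2.36e-20). Both calls were lost with that rescaling, at 0.50 and 0.94. The per-array level of Hmox1 minus Hmox2 was −1.28 ± 0.10 in liver, −3.61 ± 0.15 in brain and −0.38 ± 0.10 in lung (SD, n = 3). It was lower in brain than in liver by a difference of 2.33, lower in brain than in lung by 3.23 (written −3.23 as brain minus lung), and differed by −0.90 between liver and lung. No arrays overlapped between tissues, and each two-sided exact permutation p was 0.10, again the smallest possible (0.10 after adjustment over the 6 comparisons).

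Of 14 listed genes of heme breakdown, binding and transport, 12 were measured. Of these, 8 were called higher and 1 lower in liver than in brain, where 33.5% of all probe sets were called, with a median difference of 1.90 beside 0.18 over all probe sets. Between liver and lung 5 were called higher and 0 lower in liver, beside 28% of all probe sets, and between brain and lung 2 higher and 3 lower in brain, beside 31%. The liver-minus-lung calls were 4 higher and 4 lower with the hybridisation control rescaling, beside 4.56% and 40.8% of all probe sets. The plasma carriers led the list: Hpx, which binds free heme, had 12.89 ± 0.03 in liver, 5.95 ± 0.18 in brain and 3.97 ± 0.36 in lung (SD, n = 3). Hp, which binds free hemoglobin, had 13.49, 7.49 and 8.04. Cd163, the macrophage receptor for haptoglobin bound to hemoglobin, had 7.72, 4.04 and 4.48. Flvcr2, a transporter of the FLVCR family, was lowest in brain with 3.22 against 7.05 in liver and 7.32 in lung. The biliverdin reductases, the step after heme oxygenase, were named after their values were seen: Blvrb had 9.29 in liver, 6.50 in brain and 7.41 in lung, and Blvra 8.03, 7.28 and 8.31. Nfe2l2, a transcription factor that can induce Hmox1 and also named after its values were seen, had 10.02 in liver, 7.59 in brain and 9.79 in lung.

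**Figure D2:**
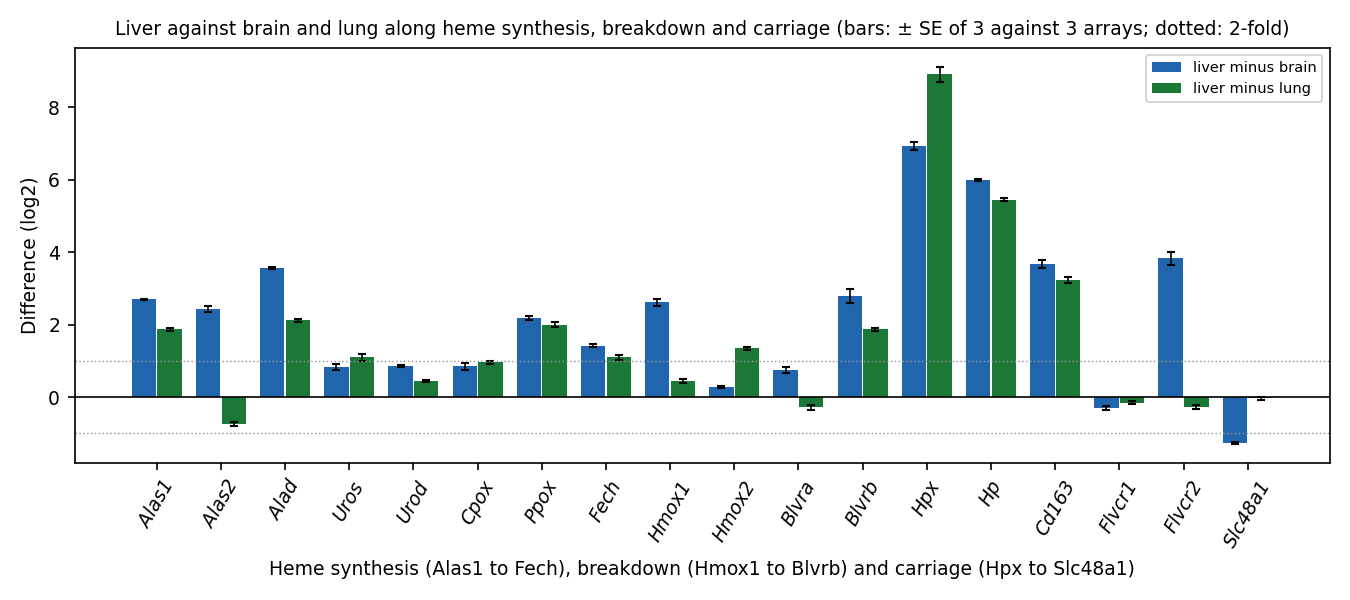
Difference in log2 level of pure liver from pure brain (blue) and pure lung (green) for genes along heme synthesis, breakdown and carriage, with bars of ± 1 standard error from 3 against 3 arrays and dotted lines at 2-fold. Alas1, Alad, Ppox, Fech, Blvrb, Hpx, Hp and Cd163 are over 2-fold higher in liver than in both tissues. Against lung, Alas2, Blvra, Flvcr1, Flvcr2 and Slc48a1 are below 0. Against brain, Flvcr1 and Slc48a1 are below 0, with −0.30 and −1.27.

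Counted over the 9 genes, 4 were called between liver and brain at an adjusted p under 0.05 and at least 2-fold, 4 higher and 0 lower in liver, where 33.5% of all 31042 probe sets were called, 14.6% higher and 18.9% lower. The 4 are Alas1, Alas2, Fech and Hmox1. Between liver and lung 5 of 9 were called, beside 28% of all probe sets (10.8% higher and 17.2% lower): Alas1, Fech and Hmox2 higher and Hbb and Ahsp lower in liver. Between brain and lung 5 of 9 were called, beside 31% (15% higher and 15.9% lower): Hmox2 higher and Hbb, Ahsp, Alas2 and Hmox1 lower in brain. Each count is a larger share than that over all probe sets, on only 9 genes chosen by name, and nothing particular to these genes is read from it. The median member difference was 0.88 for liver minus brain, 0.67 for liver minus lung and −0.84 for brain minus lung, beside 0.18, 0.12 and −0.03 over all probe sets. After the hybridisation control rescaling the calls between liver and brain were 4 higher and 0 lower, beside 7.28% higher and 36.4% lower of all probe sets. Between liver and lung they were 1 higher and 3 lower, beside 4.56% and 40.8%, and between brain and lung 0 higher and 4 lower, beside 13.9% and 17.2%. With each array centred on its median, 6 of 9 genes were called between liver and brain, 6 higher and 0 lower in liver, beside 21.1% and 15.7%.

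Mixtures that exchange 1 tissue for another at a constant share of the third gave the same question in other arrays. They were called on the adjusted p alone, since the exchange is partial. With liver exchanged for brain at 5% lung (70/25/5 minus 25/70/5), 6 of 9 genes were called, 6 higher and 0 lower with more liver, beside 53% of all probe sets, 22.1% higher and 30.9% lower. Alas1 had 10.00, 10.02 and 10.01 at 70/25/5 and 8.67, 8.67 and 8.82 at 25/70/5, with no overlap and a difference of 1.29 (limma adjusted p = 3.58e-22). Alas2 differed by 0.94, Hmox1 by 0.88, Fech by 0.64 and Hbb by 0.25, and Hmox2 by 0.12 (limma adjusted p = 0.0394). The Hmox2 call was lost without any 1 of the 6 arrays in the comparison, with adjusted p from 0.0503 to 0.128. Ahsp, Slc4a1 and Ngb had 0.12, 0.12 and 0.05 and were not called; Slc4a1 was called at 0.23 without the second array of 25/70/5, and its second probe set was called at 0.97 (limma adjusted p = 4.78e-06). With the hybridisation control rescaling 1 of the 9 was called, beside 42.4% of all probe sets.

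With liver exchanged for lung at 25% brain (70/25/5 minus 5/25/70), 7 of 9 were called, 4 higher and 3 lower, beside 61.3%, 30.7% higher and 30.6% lower. Alas1 at 1.54, Hmox2 at 0.71, Fech at 0.66 and Ngb at 0.38 were higher with more liver. Hbb was lower with more liver, with 12.36, 12.32 and 12.31 at 70/25/5 and 13.39, 13.37 and 13.43 at 5/25/70, a difference of −1.07 with no overlap (limma adjusted p = 3.25e-21). Ahsp and Alas2 were lower as well, by differences of −1.43 and −0.92. Hmox1, with 6.40, 6.49 and 6.66 against 6.53, 6.55 and 6.39, overlapped and differed by 0.03 (limma adjusted p = 0.782, 95% confidence interval −0.13 to 0.18). The second probe set of Ngb was called at 0.48 but not without the third array of 70/25/5, at 0.26. With the hybridisation control rescaling 4 of the 9 were called, beside 41% of all probe sets.

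With brain exchanged for lung at 70% liver (70/25/5 minus 70/5/25), 7 of 9 were called, 1 higher and 6 lower, beside 46.8%, 21.4% higher and 25.4% lower. Lower with more brain were Ahsp at −1.02, Alas2 at −0.75, Hmox1 at −0.58, Hbb at −0.45, Slc4a1 at −0.29 and Alas1 at −0.12, and Hmox2 was higher at 0.22. The Alas1 call (limma adjusted p = 0.0354) was lost without 5 of the 6 arrays in turn, with adjusted p up to 0.135. The Slc4a1 call was lost without the first array of 70/25/5, at −0.24. Fech, at −0.12 (limma adjusted p = 0.103), was called at −0.17 without that array. With the hybridisation control rescaling 2 of the 9 were called, beside 17% of all probe sets. The 3 exchanges share the arrays of 70/25/5.

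**Figure D3:**
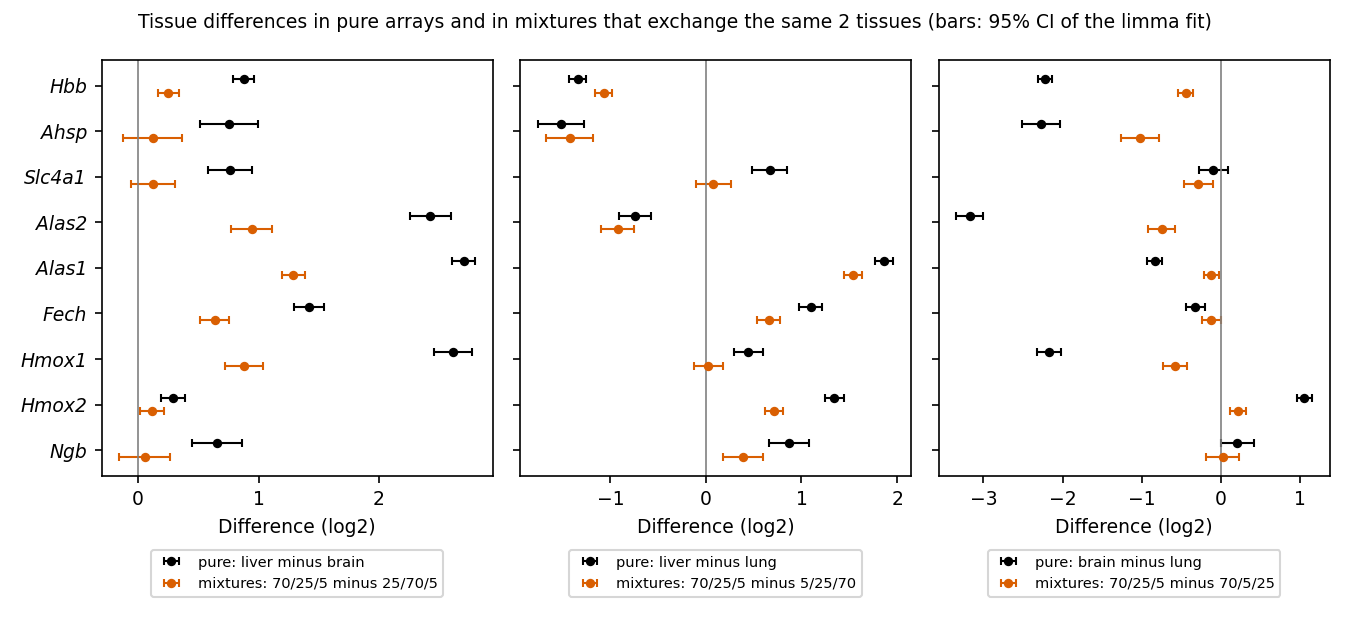
Difference in log2 level for each gene between pure tissues (black) and between mixtures that exchange the same tissues (orange), with 95% confidence intervals from the limma fit. Alas1 is above 0 in both liver comparisons, and Hbb, Ahsp and Alas2 are below 0 against lung in the middle and right panels, in pure tissues and in mixtures; with arrays rescaled on their hybridisation controls, Ahsp, Slc4a1, Hmox2 and Ngb turn sign in the left panel and Hmox1, Slc4a1 and Ngb in the middle panel.

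For 7 of the 9 genes the lowest and highest of the 11 mixture means are given here as a description. The mixture mean of Hbb ran from 12.08 at 25/70/5 to 13.40 at 5/25/70, with a median of 12.46. Alas2 ran from 5.96 at 25/70/5 to 7.82 at 5/25/70, and Ahsp from 4.32 at 65/34/1 to 5.94 at 5/25/70. The liver genes had the reverse: Alas1 ran from 8.47 at 5/25/70 to 10.13 at 70/5/25 and Fech from 8.20 to 8.97 at the same mixtures. Hmox1 was lowest at the mixture with most brain, 5.64 at 25/70/5, and highest at 70/5/25 with 7.09. Hmox2 was lowest at the mixture with most lung, 7.90 at 5/25/70, and highest at 70/25/5 with 8.61. Ngb and Slc4a1 spanned 0.60 and 0.46 over all mixtures, where the largest SD within a mixture was 0.19 and 0.21. Ngb was lowest at 5/25/70 with 5.42, and Slc4a1 was highest at 70/5/25 with 5.11.

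Genes whose 14 group means ran most alike to those of a member were listed as a description, out of 9627 genes with a mean above the median; the groups share tissues, so high correlations are common. For Alas2 the nearest were Rreb1, Ptbp1 and Cmtm6, with Pearson's r of 0.999, 0.997 and 0.997, and 48 genes exceeded 0.99. For Alas1 they were Rpp21, Derl2 and Hebp1, with 0.999, 0.999 and 0.998, and 68 genes exceeded 0.99. For Hmox1 they were Pi4k2b, Mycbp and Lrrn4, with 0.993, 0.993 and 0.992, and for Hmox2 Fbxo31, Ndufs3 and Slc13a3, with 0.998, 0.996 and 0.995. Hbb had 0 genes above 0.99; the nearest were Myl12a, Txn1 and Vipr1, with 0.986, 0.985 and 0.985.

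A linear mixture should have the share-weighted sum of the 3 pure levels, and the observed mixtures were set against that sum. Over the 11 mixtures the mean departure of Hmox1 was −0.65 (SE 0.04, limma adjusted p = 2.77e-14), below the sum in 11 of 11 mixtures by −0.37 to −0.80, and was the 1 call among the 9 genes at 1.5-fold, beside 5.17% of all probe sets, 0.325% above and 4.84% below. It was −0.32 with the hybridisation control rescaling and −0.30 against a share-weighted mean of log2 levels, and was not called under either. The median departure of the 9 genes was −0.39, and that of all probe sets was −0.22, so most values in the mixtures lay below the sum. Alas2 had −0.46, Slc4a1 −0.42, Ahsp −0.42, Fech −0.39, Ngb −0.39, Hmox2 −0.22 and Alas1 −0.21, each below the sum in 11 of 11 mixtures. The second probe set of Slc4a1 had −0.72 and was over the 1.5-fold limit.

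Hbb alone of the 9 genes lay above the sum. Its mean departure was 0.20 (SE 0.02, limma adjusted p = 4.92e-10), above in 11 of 11 mixtures by 0.08 to 0.29, under the 1.5-fold limit. At 45/45/10 the observed mean was 12.46 ± 0.10 (SD, n = 3) and the sum 12.17. At 70/5/25, where the departure was smallest, they were 12.77 and 12.69. The pure lung level of Hbb, 13.59, was near the top of the table's values, which end at 14.43. Whether this had a part in the departure was not tested.

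**Figure D4:**
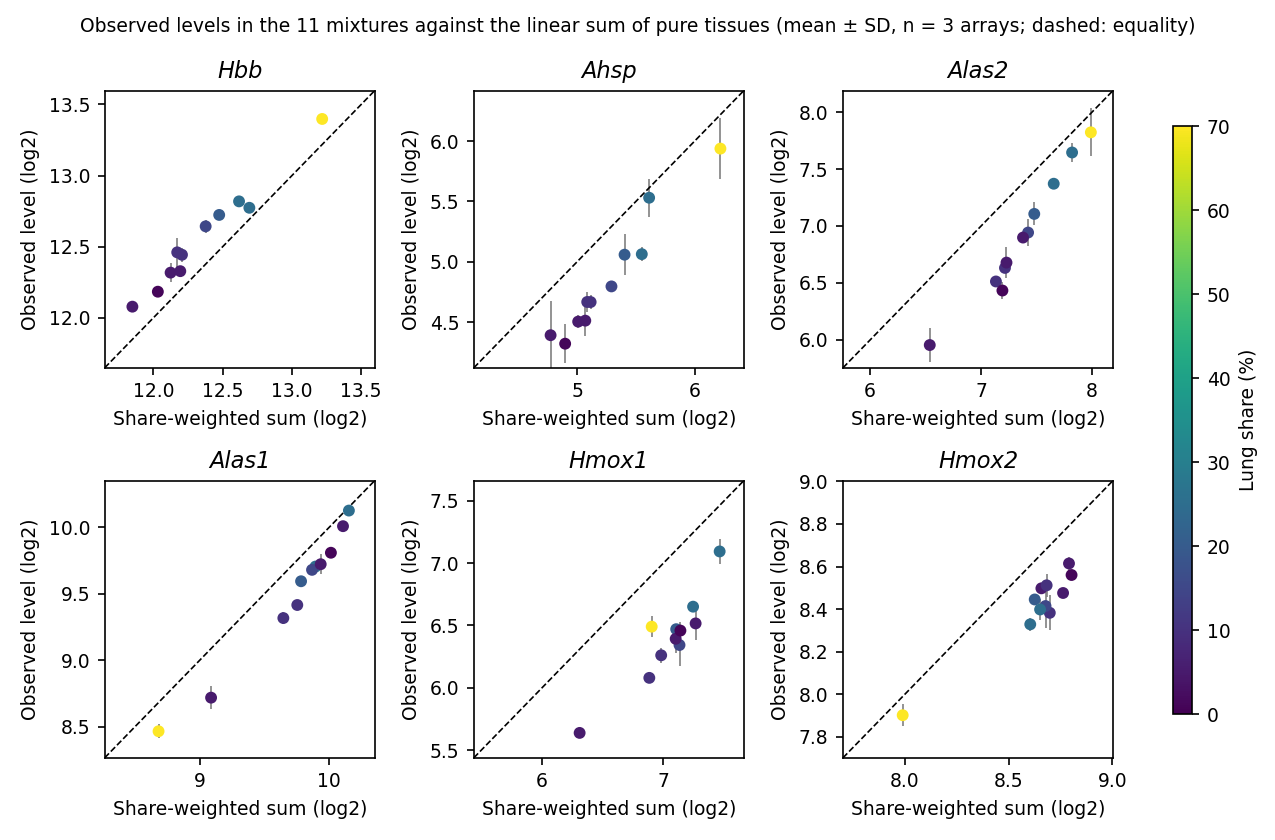
Observed mean log2 level in each of the 11 mixtures (vertical axis, bars ± SD, n = 3 arrays) against the log2 of the share-weighted sum of pure levels (horizontal axis), coloured by the lung share, with a dashed line of equality. Hbb points lie above the line in 11 of 11 mixtures, by 0.08 to 0.29, and those of Hmox1 below it by −0.37 to −0.80.

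The mixtures alone, with no pure array, were also used to estimate a level for each tissue, by a linear regression of the mixture means on the labelled shares. The estimates are on the linear scale. Hbb had 5248 for liver, 3712 for brain and 13847 for lung, so lung was again highest, and the difference of liver from brain was not called (limma adjusted p = 0.105). Alas2 had 150 for liver, −7.98 for brain and 322 for lung. Ahsp had 25.9, 10.6 and 83.2. The heme synthesis genes were highest for liver, with 1389, 3.54 and 402 for Alas1 and 550, 168 and 319 for Fech. Hmox1 had 130 for liver, 2.03 for brain and 121 for lung, and liver and lung did not differ by the test (limma adjusted p = 0.570). Hmox2 had 389, 358 and 183, so lung was again lowest. With the hybridisation control rescaling the liver-minus-brain difference of Hmox2 turned to −173. The pure brain arrays averaged 7.82 for Alas1, 5.01 for Hmox1 and 5.22 for Alas2 on the log2 scale. The brain estimates of these genes lay far below those levels, and a level cannot be below 0. They are therefore not read as amounts in brain.

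Called on the adjusted p alone, 6 of 9 genes differed between the liver and brain estimates, 6 higher and 0 lower for liver, beside 60.8% of all probe sets, 28.7% higher and 32.1% lower. Between liver and lung it was 7 of 9, 4 higher and 3 lower for liver, beside 59.8%, 29.1% higher and 30.7% lower. Between brain and lung it was 7 of 9, 1 higher and 6 lower for brain, beside 60.5%, 28.9% higher and 31.7% lower. All these counts rest on the regression, which assumes linear mixing. Those that involve brain include the brain estimates of Alas1, Alas2 and Hmox1 that are not read as amounts. Ahsp and Slc4a1 were called between liver and brain at an adjusted p of 0.0391 and 0.0419 in limma. The Ahsp call was lost without the first array of 25/70/5, the second array of 5/25/70 or the second array of 70/25/5, and the Slc4a1 call without 8 of the 33 mixture arrays in turn. The Ngb call between liver and lung was lost without the third array of 5/25/70, with an adjusted p of 0.0508. For each of the 9 genes the order of the 3 tissue estimates was that of the pure array means, with the deposited scaling. For Slc4a1 and Ngb, brain and lung overlapped in the pure arrays, and their estimates were not called apart (limma adjusted p = 0.234 and 0.0911).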

How the data were processed

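Total RNA of rat liver, brain and lung was labelled, mixed as cRNA and hybridised to Affymetrix arrays, per the labels' protocols. RMA was applied by the authors, per the submitters' processing notes, in a version not given in the sources used. Each probe set of the deposited table has a log2 value, from 2.12 to 14.43. RMA makes array distributions alike, which can shift tissues whose RNA is spread differently over genes. No replicate arrays were identical (at most 28 probe sets in a pair had values equal in every deposited digit).

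Gene names came from the platform annotation, which gave 1 gene to 20826 probe sets, several to 436 and was without an entry for 9780; all 11 member symbols were unchanged in the GRCr8 gene table. After 57 control probe sets were left out, 31042 entered 1 limma fit (limma 3.58.1, R 4.3.3) of 14 group means over 42 arrays, with residual degrees of freedom of 28 and prior ones of 4.56. Adjustment was by Benjamini-Hochberg over all probe sets. Pure tissues were called at adjusted p under 0.05 and 2-fold, departures (delta method) at 1.5-fold, and mixture pairs and the mixtures-only regression, which used limma's variance trend, on p alone. Isoform pairs were tested by exact permutation. The steps were tested on simulated data. The number of arrays limits the precision.

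The members, the gene lists and the rules were chosen with earlier results of these data known. All 9 members were named, up to 4 genes per list with the largest called difference, and the 3 genes most alike in pattern; markers beside a result and genes said to be named after their values were seen fall outside this. Alternatives covered the arrays fitted, the variance model, fold limits, median centring, repeated quantile normalization, a curve through 4 hybridisation controls (bioB, bioC, bioD and cre, taken as added in equal amounts, which was not tested), subtraction of each array's 5th percentile, a filter on dim probe sets, the mean of a gene's probe sets, log2 mixing, the mixtures used and leaving out each array. Promoter windows came from RefSeq on GRCr8; those of Fech and of Alas2, whose window starts inside the gene, were not printed.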

Additional observations from a re-analysis of the deposited data

How the results depend on the processing

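Counts of genes called were held to 1.5 times the value reported, and isoform differences to their direction alone. By these measures 132 values under alternatives stayed the same and 15 did not. Leaving out single arrays changed none of them by these measures. The size of an isoform difference was not part of this check. For pure tissues, 8 of 9 genes were called at a 1.5-fold limit and 9 with no limit, between liver and brain and between liver and lung. The share of all probe sets called at these looser limits is not given here, so nothing is read from these counts. With the hybridisation control curve, 1, 4 and 2 genes were called in the 3 mixture exchanges, beside 42.4%, 41% and 17% of all probe sets. From the mixtures alone 3 were called between liver and lung, beside 54.3%, and 0 departed from linear mixing, beside 0.673%. Between pure liver and lung 3 synthesis and 8 breakdown genes were called with the curve, beside 45.3%. Departures numbered 4 after median centring, beside 15.9% of all probe sets, and 2 after quantile normalization, beside 9.02%. With log2 mixing there were 0, and as the share of all probe sets is not given here for that setting, nothing is read from this count. Between liver and brain 10 synthesis genes were called after median centring, beside 36.8% of all probe sets. The cause was not tested.

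Single differences that changed sign did so mostly with that curve. Liver minus brain became −0.44 for Hmox2, −0.10 for Slc4a1, −0.21 for Ngb and −0.11 for Ahsp. Liver minus lung became −0.27 for Slc4a1, −0.49 for Hmox1, −0.068 for Ngb, and −0.91 and −0.37 for the second probe sets of Ngb and Slc4a1. In the liver and brain exchange, Hmox2 became −0.29, Slc4a1 −0.33, Ngb −0.40 and Ahsp −0.33. In the liver and lung exchange, Slc4a1 became −0.40, Hmox1 −0.45, Ngb −0.091 and the second probe set of Slc4a1 −0.25. From the mixtures alone, liver minus brain (linear scale) became −173 for Hmox2, −7.45 for Slc4a1, −31.1 for Ngb and −6.57 for Ahsp. Liver minus lung became −10.6 for Slc4a1, −39.7 for Hmox1, −1.10 for Ngb, and −4.20 and −6.49 for the second probe sets of Ngb and Slc4a1. Relative to the median of all probe sets, 0 of the 33 pure differences changed sign with the curve, and 1 did with quantile normalization.

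Under other settings, the mean of both Ngb probe sets gave −0.17 for liver minus brain and −0.11 in the exchange. Ngb became −0.037 in the brain and lung exchange after median centring and −0.040 after quantile normalization, and its second probe set became −0.041 for liver minus lung after subtraction of the 5th percentile. Alas1 lay above a log2 mixture by 0.19. With single arrays left out, the second probe set of Ngb ran from −0.056 to 0.13 for liver minus lung, Ahsp from −0.038 to 0.23 in the liver and brain exchange, Hmox1 from −0.044 to 0.085 in the liver and lung exchange and Ngb from −0.018 to 0.097 in the brain and lung exchange. None of these 4 was called with all arrays. Among 4 mixtures with 70% of a tissue, all of which have 5% of another, none decided the departures: the call of Hmox1 was kept without them. Brightness limits Slc4a1, whose probe sets stay below the median of all values. It also limits the folds of Ahsp, Alas2 and Hmox1, whose brain means, and for Ahsp the liver mean, lie below that median too. For Ngb the same holds for the lung mean of 5.57. On its second probe set it holds for the liver and lung means, 5.11 and 5.08.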
